A study of Mus musculus with 12 samples.

Results

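Natural killer (NK) cells from the bone marrow of mice without the microRNA miR-142 were compared with those of wild type mice. The comparison used all 6 bone marrow arrays of a series of 12, 3 labelled as miR-142 knockout and 3 as wild type. The other 6 arrays hold spleen NK cells of the same genotypes and serve here to estimate the spread between arrays and to show where marrow differs. Per the labels, the mice were C57BL6, 7 to 10 weeks old and matched for age and sex, and the cells were sorted as CD3-negative and NK1.1-positive. No treatment is given for any group. The 3 arrays of each group are labelled as biological replicates, with no word on the animals or on pooling. The labels do not tell whether all cells of the mouse or 1 lineage carried the deletion. The question in the series' own text is which genes differ and might have a part in the phenotype of the knockout. The values are log2 signals, so a difference of 1 is a doubling. Each difference is knockout minus wild type with its standard error, from a linear model fitted in limma over all tested genes (n = 3 arrays per group). A gene was called, and is said to have risen or fallen, at a Benjamini-Hochberg adjusted p under 0.05.

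MicroRNAs are short RNAs that guide Argonaute proteins to messenger RNAs, mostly through pairing of the seed near their 5′ end, and lower the stability and translation of those messages. miR-142 is abundant in blood cells, and both arms of its hairpin give rise to mature microRNAs. NK cells are lymphocytes that kill infected or transformed cells with perforin and granzymes and secrete interferon gamma, under the balance of activating and inhibitory receptors. They develop in the bone marrow and depend on interleukin 15. Group 1 innate lymphoid cells (ILC1), a related tissue-resident type, share NK1.1 with them and so can pass the same sort.

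The RNA that the knockout is labelled as lacking is shown first. RefSeq places the hairpin on chromosome 11 of assembly GRCm38.p6, at chr11:87756864-87756927 on the plus strand. In the 64 bases of the hairpin the capitals mark the mature arms, and in each arm they mark the seed, bases 2 to 8.
Mir142 hairpin: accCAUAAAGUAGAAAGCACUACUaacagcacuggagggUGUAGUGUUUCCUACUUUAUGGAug
mmu-miR-142a-5p: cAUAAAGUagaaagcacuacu
mmu-miR-142a-3p: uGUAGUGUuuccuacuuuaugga
The 5p arm is 21 bases long, the 3p arm is 23, and their seeds differ.

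The array has a probe set named Mir142. It measured 7.10, 8.25 and 7.14 in the wild type arrays and 4.69, 4.70 and 4.26 in the knockout arrays, a difference of -2.72 ± 0.32 or 6.59-fold (limma, adjusted p = 0.000299). No knockout array reached the lowest wild type array, so the signal went with the labelled genotype in all 6 arrays. The probe set does not measure the mature microRNA, and the labels do not tell where its probes lie relative to the deletion. Its knockout signals lie near the lower quartile of their arrays, where differences are compressed.

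The next gene along the chromosome rose. Tspoap1, which encodes a protein that binds the mitochondrial translocator protein and follows Mir142 in the RefSeq gene order, measured 5.37, 5.66 and 5.41 in the wild type arrays and 9.72, 9.65 and 9.14 in the knockout arrays (4.07 ± 0.19, adjusted p = 3.53e-07, 16.8-fold). All knockout arrays were over 3 log2 units above all wild type arrays. Of the 12 tested genes listed around Mir142, Tspoap1 alone rose, and 2 fell. Over all tested genes 3.92% rose and 4.73% fell, which is the background for this and each later count of members. Members and lists were chosen with earlier results of these data known, so no such count is an independent test against it. The 2 falls were Rnf43, a ubiquitin ligase that removes Wnt receptors (-1.21 ± 0.16, adjusted p = 0.000574), and the septin gene Septin4 (-0.80 ± 0.15, adjusted p = 0.00641). Mpo, a granulocyte peroxidase and the gene after Tspoap1, was not called (-0.78 ± 0.35, adjusted p = 0.198). The median of the 12 was -0.24, against -0.01 over all tested genes. In the absence of wild type array 1 the call of Septin4 was lost, at a difference of -0.58.

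The 6 arrays were close in scale, with medians of 5.75 to 5.82. Across genes the wild type arrays correlated with each other at 0.979 to 0.981 and the knockout arrays at 0.969 to 0.981, and arrays of different genotype at 0.935 to 0.956. By their array numbers the samples fall into 2 runs. All 3 knockout marrow arrays and wild type array 1 are in the first run, and wild type arrays 2 and 3 are in the second. The run was therefore a term of the model, and wild type array 1 is the only marrow array that ties the genotypes together within a run.

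None of the 12 tested genes on the list of defining NK markers was called in either direction. Itga2, the CD49b chain also used to mark conventional NK cells, is not on this list and fell, as given below. The median difference of the 12 was 0.15. Their summed linear signal was 31827 to 36238 in wild type and 34316 to 36993 in knockout arrays, so the groups overlap. Ncr1, which encodes the NK receptor NKp46, measured 11.53, 11.60 and 11.89 in wild type and 11.65, 11.74 and 11.94 in knockout arrays (0.19 ± 0.13, adjusted p = 0.405), and Eomes, the transcription factor of conventional NK cells, measured 11.05, 11.14 and 11.29 in wild type and 11.18, 10.96 and 11.16 in knockout arrays (0.04 ± 0.11, adjusted p = 0.848).

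Markers of other cell types moved with genotype in some lists. Granulocyte markers were lower in the knockout, with 4 of 12 tested members called lower (4.73% of all tested genes were) and none higher, a median of -0.95, and a summed signal of 5107 to 5994 in wild type and 1941 to 3559 in knockout arrays. S100a8, a calcium-binding protein of neutrophils, measured 10.88, 10.81 and 10.73 in wild type and 10.10, 8.94 and 9.79 in knockout arrays (-1.74 ± 0.41, adjusted p = 0.0233), and Lcn2, a siderophore-binding protein of neutrophil granules, measured 7.99, 8.18 and 7.56 in wild type and 6.46, 6.34 and 6.17 in knockout arrays (-1.72 ± 0.28, adjusted p = 0.0032). The groups do not overlap for either. The other 9 granulocyte markers, among them Ly6g, Csf3r, Cxcr2 and Ltf, lay below the expression filter. T cell markers summed to 3117 to 3277 in wild type and 1499 to 1799 in knockout arrays, with 4 of 10 called lower (Cd3d, Cd3g, Cd3e and Cd28), while Cd4, Cd8b1 and Themis lay below the filter. Dendritic cell and MHC class II genes summed to 2416 to 2770 in wild type and 4496 to 4974 in knockout arrays. Of these 12, 3 rose and 1 fell (3.92% and 4.73% of all tested genes), and the rises include Itgax, which NK cells also express. The Itgax signal alone makes up most of the gap between the dendritic sums. Flt3, Xcr1, Clec9a, Siglech and Cd209a lay below the filter, and the invariant chain gene Cd74 was not called (1.07 ± 0.42, adjusted p = 0.148). Leaving out wild type array 1, the called members were 2 lower for granulocytes, 3 lower for T cells and 1 higher for dendritic cells. Their part in the differences below was not tested beyond the covariate fit given next, and in RNA from sorted cells fewer cells of a type and less RNA per cell cannot be told apart. In the 12 fits that left out 1 array, S100a8 was called in 10.

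Among the remaining lists, monocyte markers had 0 of 6 called and overlapped (1123 to 1237 in wild type, 958 to 1172 in knockout arrays). B and plasma cell markers had 1 of 10 called lower, and their sums did not overlap (1242 to 1430 against 1147 to 1232). Erythroid markers had 1 higher and 2 lower of 7. Their sums did not overlap and were higher in the knockout (1316 to 1503 in wild type, 1522 to 1749 in knockout arrays). Platelet markers had 1 lower of 8 and basophil and mast cell markers 0 of 2, and the sums of both overlapped. Markers of other innate lymphoid cells had 1 higher of 7, Klrg1, and their sums did not overlap (1255 to 1328 against 1596 to 1965). Carbonic anhydrase Car1, an erythroid gene, was the largest of these falls (-1.71 ± 0.34). The call of Car1 was lost without wild type array 1, at a difference of -0.89.

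**Figure D1:**
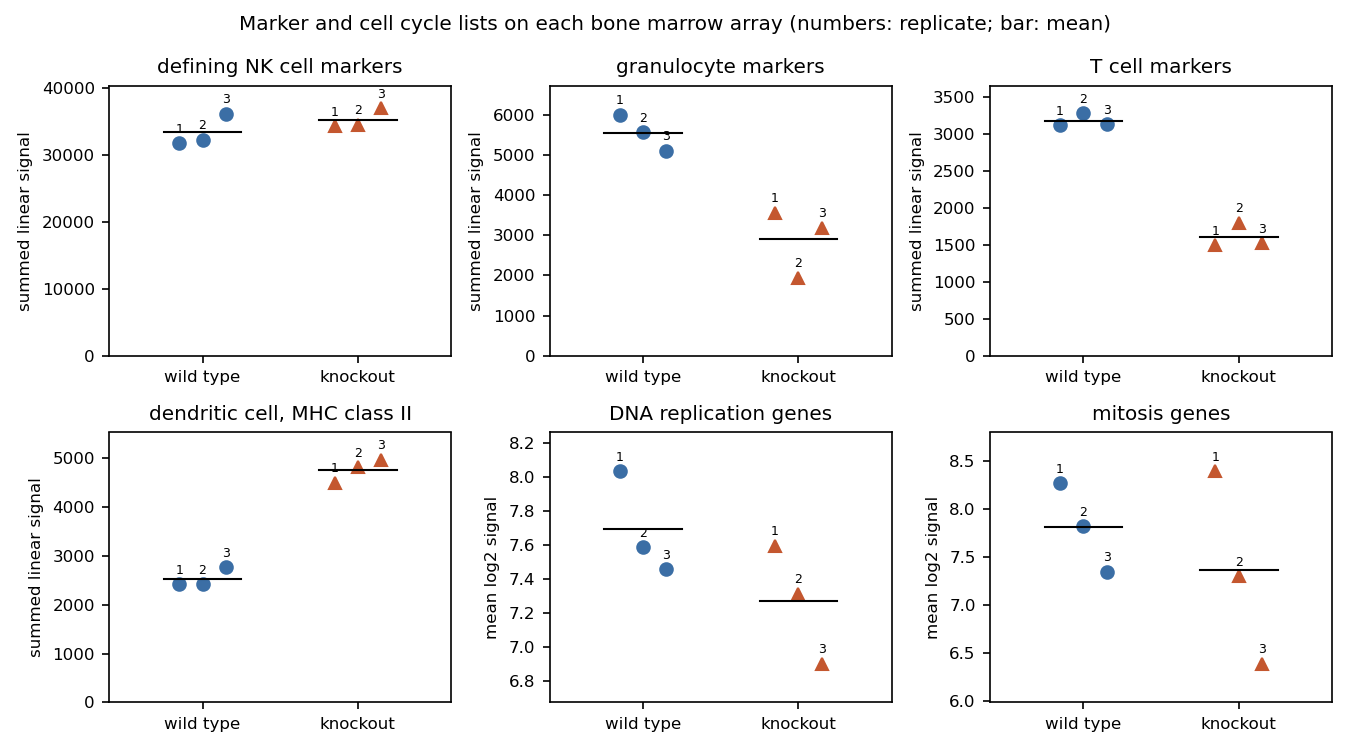
Summed linear signal of the NK, granulocyte, T cell and dendritic cell marker lists, and mean log2 signal of the DNA replication and mitosis lists, on each bone marrow array. Numbers are the array's replicate and bars are group means. The NK panel overlaps between genotypes, while the granulocyte (5107 to 5994 against 1941 to 3559), T cell and dendritic panels do not. Most of the gap in the dendritic panel is the signal of Itgax.

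NK cells of knockout marrow had higher signals of the glutathione transferase Gsta4, the semaphorin Sema6d, the granzyme Gzmc and the residency integrin Itga1, each over 8-fold. They had lower signals of the SLAM receptor Slamf6, the NKG2D ligand H60b and the lipid kinase Dgka, each over 8-fold. The chemokine receptor Cxcr3 and the egress receptor S1pr1 were also lower. In all, 1035 of 11963 tested genes differed (8.65%). Of these 469 were higher (3.92%) and 566 lower (4.73%), so higher genes made up 45.3% of the calls. The median difference of all tested genes was -0.01. Over 2-fold, 166 genes were higher and 125 lower (2.43% together). Over 4-fold the counts were 29 and 20, and over 8-fold 7 and 5. The knockout arrays lay wholly outside the wild type range for 34.2% of all tested genes, and for 1019 of the 1035 called genes. A second quantile normalization gave 529 higher and 394 lower genes (57.3% higher), and centring each array on its median gave 370 higher and 830 lower (30.8% higher) with the median of all genes moved to -0.08. The balance of small rises and falls therefore depended on the scaling.

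The count of calls depended on single arrays, and among these most on wild type array 1. It was 371 (3.1%, 189 higher and 182 lower) without wild type array 1, 700 without knockout array 3 and 727 without knockout array 2. Without wild type array 1 the runs separate the marrow genotypes wholly, and the run term rests on spleen alone. Whether this or the array's own values lowered the count was not tested. Of these 371 genes, 349 were among the 1035. Within the first run, where 1 wild type marrow array remains and is assumed to vary like the other groups, 342 were called (2.86%), and all 1035 genes kept their sign. The 1035 genes were chosen in the main fit, which holds all arrays of the first run. Their kept signs are therefore not an independent check. With the granulocyte marker level as a covariate, which does not overlap between the marrow genotypes, 95 were called (0.794%). This level went with genotype in marrow, so a call lost in that fit, here or below, need not mean a smaller difference. Of the 291 genes over 2-fold, 76 were called in that fit and 289 kept their sign, while 202 were called in all 12 fits that left out 1 array. Counts without wild type array 1 and with the granulocyte covariate are given below as higher and lower.

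**Figure D2:**
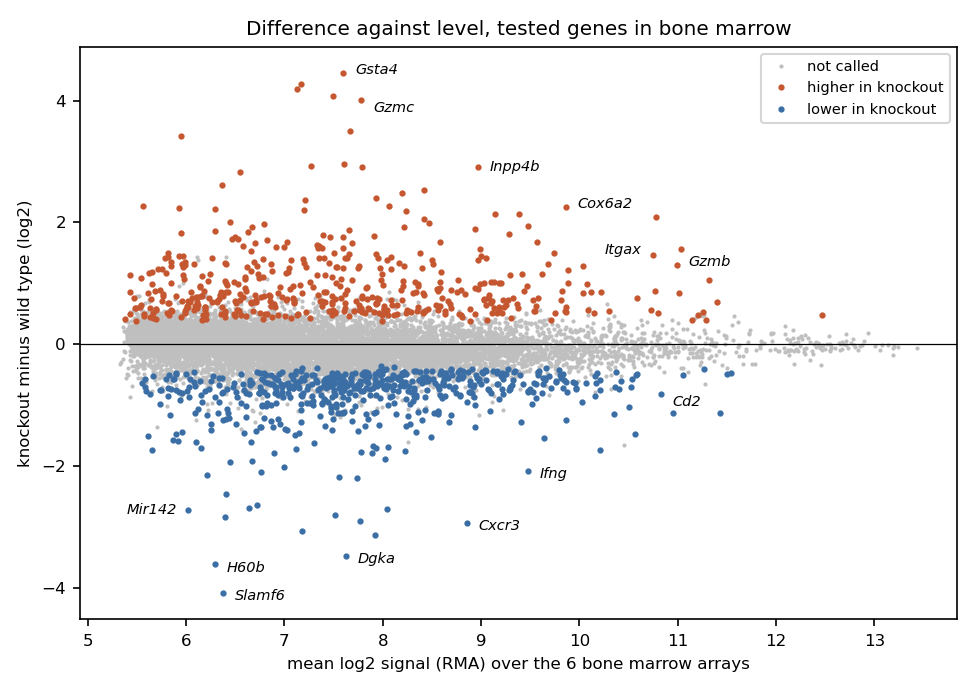
Knockout minus wild type difference (log2) of each of the 11963 tested genes against its mean log2 signal over the 6 marrow arrays. Orange points are the 469 genes called higher and blue points the 566 called lower. The largest differences, from Slamf6 at the bottom to Gsta4 at the top, lie at mean signals of 6 to 8.

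The largest rises brought genes with low signals in wild type marrow up to middle or high signals in the knockout. Gsta4, a glutathione transferase that detoxifies lipid aldehydes, measured 5.30, 5.70 and 5.13 in the wild type arrays and 10.23, 9.41 and 9.82 in the knockout arrays (4.45 ± 0.28, adjusted p = 5.43e-06, 21.9-fold). Sema6d, a transmembrane semaphorin, measured 4.80, 5.10 and 5.39 in the wild type arrays and 9.13, 9.55 and 8.82 in the knockout arrays (4.19 ± 0.25, adjusted p = 2.86e-06, 18.2-fold). For both genes every knockout array was over 3 log2 units above every wild type array. Their mean wild type signals lie below the expression filter of 5.49, at levels where differences are compressed, so these genes passed the filter through the knockout arrays. The same holds for Tmem273, Tspoap1, Gpr34, Il20ra and Tjp1. Tmem273 measured 5.16, 5.22 and 4.89 in the wild type arrays and 8.79, 9.40 and 9.56 in the knockout arrays (4.27 ± 0.32, adjusted p = 9.52e-06). Gzmc, one of the granzymes clustered on 1 chromosome whose sequences are alike enough to share probes, measured 6.49, 5.12 and 5.17 in the wild type arrays and 9.74, 10.47 and 9.71 in the knockout arrays (4.001 ± 0.38, adjusted p = 6.63e-05). Wild type array 1 was the highest of its group for Gzmc, and the groups are still 3 log2 units apart. Itga1, the collagen-binding CD49a chain found on tissue-resident NK cells and ILC1, measured 6.33, 5.40 and 5.91 in the wild type arrays and 9.19, 9.62 and 9.55 in the knockout arrays (3.49 ± 0.24, adjusted p = 6.52e-06, 11.3-fold). Gpr34, a receptor for lysophosphatidylserine, measured 4.18, 4.46 and 3.91 in the wild type arrays and 7.54, 7.87 and 7.75 in the knockout arrays (3.41 ± 0.23, adjusted p = 6.52e-06). Both receptors were separated by over 2 log2 units.

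Klra5, an inhibitory receptor of the Ly49 family whose members can share probes, measured 5.67, 6.12 and 6.93 in the wild type arrays and 8.78, 9.26 and 8.85 in the knockout arrays (2.96 ± 0.29, adjusted p = 8.65e-05). Cdh1, which encodes E-cadherin, an adhesion protein that is also bound by the inhibitory receptor Klrg1, measured 5.78, 5.95 and 5.67 in the wild type arrays and 8.22, 9.04 and 8.94 in the knockout arrays (2.93 ± 0.21, adjusted p = 8.28e-06). The knockout arrays were above every wild type array for both. Inpp4b, a phosphatase that removes phosphate from phosphoinositides, started from a middle level and measured 7.46, 7.62 and 7.35 in the wild type arrays and 10.32, 10.59 and 10.44 in the knockout arrays (2.90 ± 0.21, adjusted p = 7.53e-06). Il20ra, a receptor chain for interleukins 19, 20 and 24, measured 4.71, 5.36 and 5.76 in the wild type arrays and 7.97, 7.66 and 7.82 in the knockout arrays (2.82 ± 0.29, adjusted p = 0.000122). Of the other 4 genes among the 15 largest rises, the rises were 2.91 ± 0.19 for Mab21l2, 2.62 ± 0.26 for the tight junction scaffold Tjp1, 2.53 ± 0.38 for the brain creatine kinase Ckb and 2.49 ± 0.22 for Tmem176a. With the granulocyte covariate the calls of Gzmc, Klra5, Tjp1 and Ckb were lost, and their differences were 3.53, 2.57, 1.91 and 2.98.

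The largest fall was that of Slamf6, a receptor of the SLAM family that binds itself on neighbouring cells and signals through the adaptor SAP. It measured 8.35, 8.38 and 8.55 in the wild type arrays and 4.47, 4.30 and 4.21 in the knockout arrays (-4.09 ± 0.13, adjusted p = 8.49e-09, 17-fold). The wild type arrays lay close together, and every knockout signal was under the lower quartile of its array, where differences are compressed. H60b, a ligand of the activating receptor NKG2D with close relatives that can share its probes, measured 8.26, 8.20 and 7.73 in the wild type arrays and 5.04, 4.42 and 4.13 in the knockout arrays (-3.62 ± 0.40, adjusted p = 0.000176). Dgka, which removes the second messenger diacylglycerol by phosphorylating it, measured 9.35, 9.25 and 9.41 in the wild type arrays and 5.76, 6.21 and 5.76 in the knockout arrays (-3.48 ± 0.14, adjusted p = 1.16e-07, 11.2-fold). Both groups were tight for Dgka and stood 3 log2 units apart. Cmah, the hydroxylase that makes the sialic acid Neu5Gc, measured 8.56, 8.80 and 8.95 in the wild type arrays and 6.31, 5.40 and 5.06 in the knockout arrays (-3.08 ± 0.32, adjusted p = 0.000122).

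The other large falls were spread over several gene families. Klf3, a zinc finger repressor, measured 8.96, 9.15 and 9.56 in the wild type arrays and 6.23, 6.39 and 6.32 in the knockout arrays (-2.90 ± 0.19, adjusted p = 6.52e-06). Sidt1, a transmembrane protein of the family that handles double-stranded RNA, measured 8.68, 9.08 and 9.10 in the wild type arrays and 5.99, 6.21 and 6.01 in the knockout arrays (-2.80 ± 0.14, adjusted p = 4.22e-07). Plxnc1, the plexin that binds semaphorin 7A, measured 7.84, 7.88 and 8.50 in the wild type arrays and 5.80, 5.27 and 5.02 in the knockout arrays (-2.65 ± 0.26, adjusted p = 9.33e-05). No knockout array overlapped a wild type array for these 3 genes. Cxcr3, S1pr1 and Cd3d, the other large falls of lymphocyte genes, are described with their groups. As3mt, an arsenic methyltransferase, fell by 2.70 ± 0.17, Sgk1, a kinase downstream of PI3 kinase, by 2.46 ± 0.34, and Gramd3 by 2.19 ± 0.18. Ifi208, of the interferon-inducible PYHIN family, measured 8.39, 8.76 and 8.64 in the wild type arrays and 5.41, 6.81 and 7.35 in the knockout arrays (-2.19 ± 0.47, adjusted p = 0.0142). It was the least even of the 15, and without wild type array 1 its call was lost (-2.60, adjusted p = 0.0534). With the granulocyte covariate the calls of H60b, Mir142, Sgk1 and Ifi208 were lost, at differences of -2.45, -2.31, -2.45 and -2.88. The mean knockout marrow signals of Slamf6, H60b, Mir142, Sgk1, As3mt and Plxnc1 lay below the expression filter. Differences are compressed at such levels, and these genes passed the filter through other arrays.

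**Figure D3:**
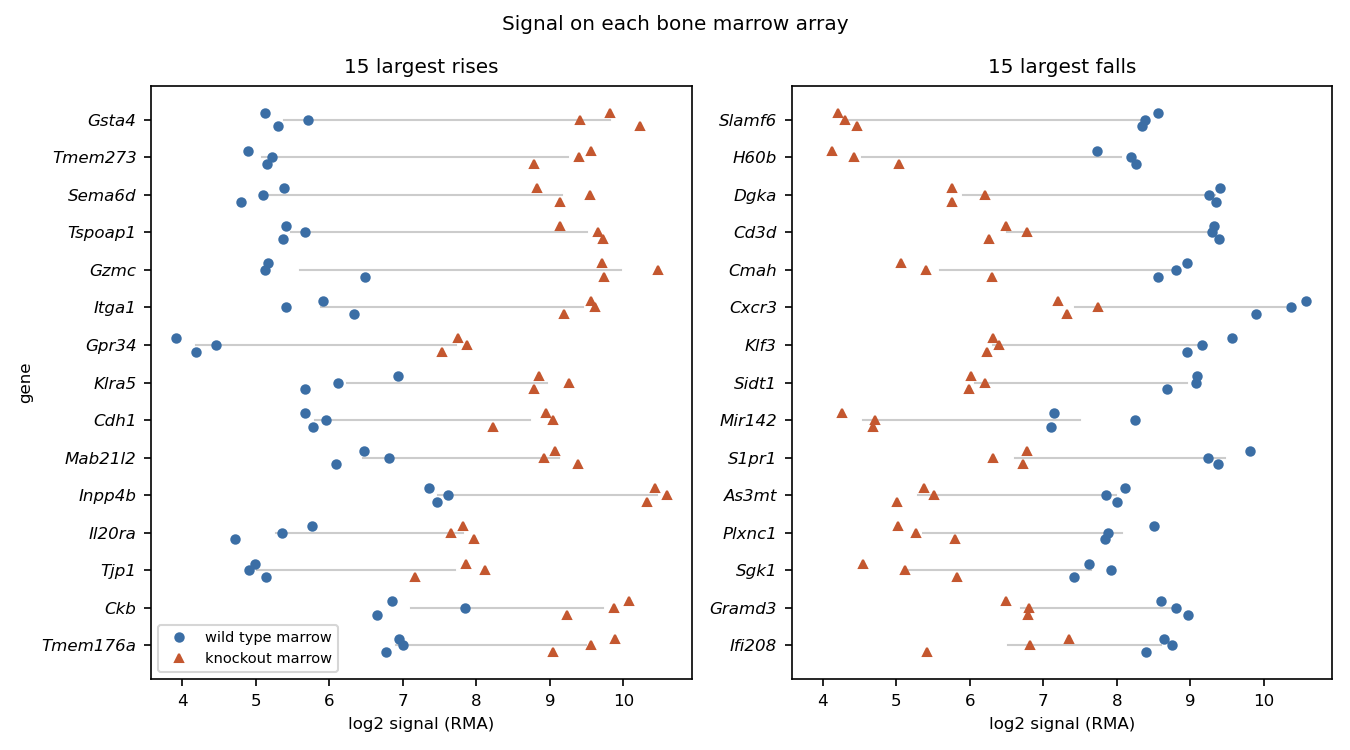
Log2 signal of the 15 genes with the largest rises and the 15 with the largest falls in knockout marrow, on each of the 3 wild type and 3 knockout arrays, with grey lines joining the group means. In every row the knockout points lie outside the range of the wild type points, which the rule for these genes required.

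Of 23 activating receptors tested, 3 rose and 2 fell, with a median of 0.01. The share called was 21.7%, against 8.65% of all tested genes. Slamf6 was the largest fall. Tnfrsf9, the costimulatory receptor 4-1BB, measured 8.48, 8.25 and 8.43 in the wild type arrays and 9.86, 10.41 and 10.24 in the knockout arrays (1.81 ± 0.19, adjusted p = 0.000134). Styk1, a kinase-like membrane protein of NK cells, measured 8.58, 8.91 and 8.81 in the wild type arrays and 10.30, 10.47 and 10.31 in the knockout arrays (1.68 ± 0.13, adjusted p = 1.99e-05). Both were over 3-fold higher in the knockout without overlap. Cd2, an adhesion receptor that binds CD48 in the mouse, fell by 0.83 ± 0.15, adjusted p = 0.00515. Cd160, a receptor for HVEM, rose by 0.64 ± 0.17 and was called in 6 of the 12 fits that left out 1 array. The receptors NKp46, NKG2D and DNAM-1 were not called: Ncr1 differed by 0.19 ± 0.13, Klrk1 by 0.01 ± 0.13 and Cd226 by 0.47 ± 0.20. With the granulocyte covariate 1 receptor was called higher and 1 lower. Leaving out wild type array 1 ended the call of Cd160, at a difference of 0.52.

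Of 13 tested adaptors that couple these receptors to kinases, 1 rose and 2 fell. Cd247, the zeta chain used by the T cell receptor and by NK receptors, measured 8.62, 8.90 and 8.95 in the wild type arrays and 7.85, 7.65 and 7.68 in the knockout arrays (-0.99 ± 0.13, adjusted p = 0.000533), so the groups do not overlap. Clnk, an adaptor of the SLP-76 family, rose by 1.00 ± 0.17, adjusted p = 0.00403. Sh2d1a, which encodes SAP, the partner of Slamf6, fell by 0.72 ± 0.19, adjusted p = 0.0412, and was called in 4 of the 12 fits. Tyrobp and Fcer1g, the adaptors of many activating receptors, were not called (-0.09 ± 0.10 and 0.08 ± 0.10). Cd247 was the sole adaptor called without wild type array 1, and none was with the granulocyte covariate. With wild type array 1 left out, Clnk and Sh2d1a were not called, at differences of 0.97 and -0.78.

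Inhibitory receptors were more often higher than lower. Of 14 tested, 5 rose and 1 fell, with a median of 0.30, where 3.92% of all tested genes rose and 4.73% fell. Klrg1, which binds cadherins and marks mature NK cells, measured 8.16, 7.18 and 7.77 in the wild type arrays and 9.71, 9.14 and 9.04 in the knockout arrays (1.38 ± 0.27, adjusted p = 0.00932). Klrb1b, which binds Clec2d, rose by 1.05 ± 0.13, adjusted p = 0.000502. Tigit, which competes with DNAM-1 for the ligand CD155, rose by 0.76 ± 0.14, adjusted p = 0.00686, and Klra3 by 0.69 ± 0.12, adjusted p = 0.00474. Klra5, described above, was the largest. Klra6 fell by 0.85 ± 0.22 and was called in 4 of the 12 fits. Klrd1, which encodes CD94, and Klrc1, its partner NKG2A, were not called (0.17 ± 0.10 and -0.33 ± 0.14). No member was called with the granulocyte covariate, and the median was 0.19. When wild type array 1 was left out the calls of Tigit and Klra6 were lost (0.60 and -0.92).

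The granule and death effectors moved apart from each other. Of 13 tested, 5 rose and 2 fell, with a median of 0.29. Tnfsf10, the death ligand TRAIL of ILC1 and immature NK cells, measured 7.02, 6.95 and 6.99 in the wild type arrays and 9.09, 9.27 and 9.05 in the knockout arrays (2.27 ± 0.18, adjusted p = 1.68e-05). Gzmb, the main granzyme of activated NK cells, measured 10.43, 10.22 and 10.28 in the wild type arrays and 11.55, 11.94 and 11.54 in the knockout arrays (1.31 ± 0.14, adjusted p = 0.000122). The knockout arrays were over 1 log2 unit above the wild type arrays for both. Cma1, a mast cell type protease, measured 6.48, 6.39 and 6.59 in the wild type arrays and 5.01, 4.87 and 4.59 in the knockout arrays (-1.75 ± 0.26, adjusted p = 0.00145), and Gzmm fell by 0.88 ± 0.18, adjusted p = 0.0103. Gzma, another granzyme, and Prf1, which encodes perforin, were not called (0.29 ± 0.11, adjusted p = 0.127 and 0.26 ± 0.15, adjusted p = 0.311), with 95% intervals of 0.05 to 0.53 and -0.07 to 0.59. The counts were 3 higher and 1 lower without wild type array 1, and 1 and 1 with the granulocyte covariate. The smaller rises of Gzmk (0.63 ± 0.17) and of the granule proteoglycan Srgn (0.48 ± 0.11) were called in 3 and 8 of the 12 fits. Every knockout signal of Cma1 lay below the expression filter, where differences are compressed. If wild type array 1 was omitted, Gzmm, Gzmk and Srgn were not called (-0.86, 0.53 and 0.54).

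**Figure D4:**
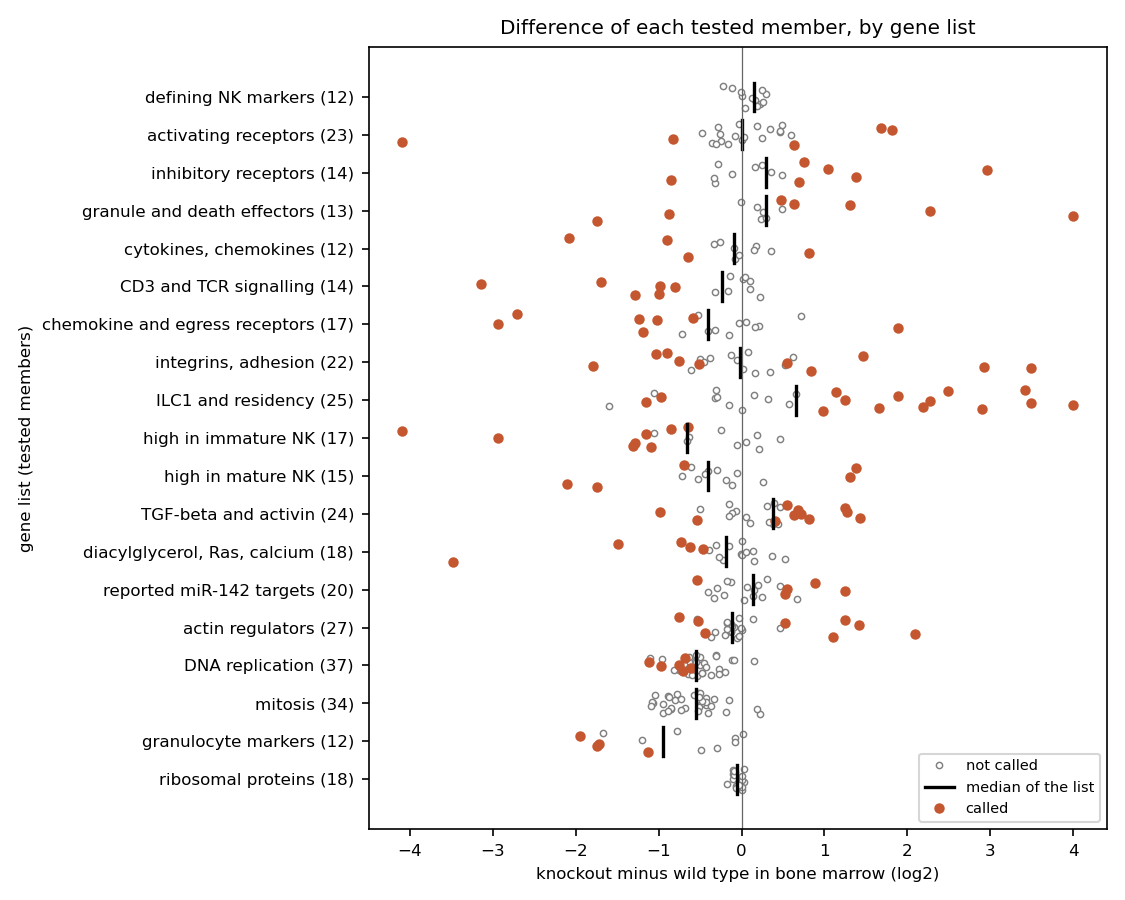
Knockout minus wild type difference (log2) of each tested member of 19 gene lists in bone marrow, with the number tested in brackets. Filled points were called and black bars are medians. The ILC1 and residency list has the highest median (0.66) and the granulocyte list the lowest (-0.95), while the defining NK markers, the mitosis genes and the ribosomal proteins have no called member.

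Genes that move and fuse granules had 1 call higher and 4 lower of 19, with a median of 0.07, and none was called without wild type array 1 or with the granulocyte covariate, and 0 higher and 2 lower without knockout array 3. Rab27a, the GTPase that tethers granules at the membrane, rose by 0.38 ± 0.10. Lyst, which sets granule size, fell by 0.61 ± 0.15, Vamp8, a fusion protein, by 0.51 ± 0.14, and Was, which drives actin branching, by 0.44 ± 0.11. These are small differences beside those of the granzyme inhibitors. Serpinb9b measured 8.20, 7.45 and 7.73 in the wild type arrays and 5.67, 5.70 and 5.85 in the knockout arrays (-2.11 ± 0.23, adjusted p = 0.000167), while Cst7, which encodes cystatin F, an inhibitor of granule cathepsins, rose by 0.87 ± 0.14, adjusted p = 0.00279. These were the calls of 6 inhibitors tested, and neither was called with the granulocyte covariate (-1.86 and 0.60). In the absence of wild type array 1 the calls of Rab27a, Lyst, Vamp8 and Was were lost, at differences of 0.30, -0.61, -0.51 and -0.52. Across the 12 such fits, Rab27a was called in 2, Lyst in 8, Vamp8 in 2 and Was in 5.

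Of 12 tested cytokines and chemokines, 1 rose and 3 fell, with a median of -0.09. Ifng, the main NK cytokine, measured 10.74, 10.35 and 10.22 in the wild type arrays and 9.09, 8.66 and 7.80 in the knockout arrays (-2.08 ± 0.33, adjusted p = 0.00247). The groups do not overlap, although without wild type array 1 the call was lost at a difference of -1.91 (adjusted p = 0.0507). Tgfb1, the latent growth factor made by many lymphocytes, rose by 0.81 ± 0.14, adjusted p = 0.00385. Tnf and Ltb fell by 0.90 ± 0.24 and 0.65 ± 0.17, and were called in 4 and 3 of the 12 fits. The chemokines Ccl3, Ccl4 and Ccl5 were not called (-0.08 ± 0.16, 0.17 ± 0.19 and -0.03 ± 0.10). The list had 1 member called higher and 1 lower without knockout array 3, and none with the granulocyte covariate.

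Of 23 genes of the interleukin 15 and JAK-STAT pathway, 2 rose and 3 fell (21.7% called, against 8.65% of all tested genes). Cish, a STAT5-induced inhibitor of interleukin 15 signalling, measured 6.86, 6.79 and 6.52 in the wild type arrays and 8.09, 9.11 and 8.74 in the knockout arrays (1.66 ± 0.27, adjusted p = 0.00261), and without wild type array 1 the call was lost at 1.501 (adjusted p = 0.0544). Ptpn6, the phosphatase SHP-1 that acts below inhibitory receptors, rose by 0.88 ± 0.13, adjusted p = 0.00184 and was the one member still called without that array. Pim1 and Socs3, both STAT targets, fell by 1.08 ± 0.21 and 0.97 ± 0.20, and Jak1 by 0.47 ± 0.10. Il2rb, the shared receptor chain for interleukins 2 and 15, was not called (0.23 ± 0.11, adjusted p = 0.222). Among 17 receptors for interleukins 12, 18 and others, 2 rose and 2 fell (23.5% called). Il18rap, the accessory chain of the interleukin 18 receptor, measured 10.50, 10.55 and 10.46 in the wild type arrays and 9.54, 9.43 and 9.70 in the knockout arrays (-0.96 ± 0.12, adjusted p = 0.000525), whereas its partner Il18r1 was not called (-0.29 ± 0.13). Il17ra fell by 0.71 ± 0.15. No member of either list was called with the granulocyte covariate. Il21r and Ifnar1 rose by 0.68 ± 0.17 and 0.54 ± 0.13, and neither was called without wild type array 1. The calls of Pim1, Socs3, Jak1, Il17ra, Il21r and Ifnar1 were lost without wild type array 1, at differences of -1.06, -0.999, -0.53, -0.73, 0.68 and 0.49. Among the 12 fits without 1 array, Il21r was called in 8 and Ifnar1 in 10.

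The sort removed CD3-positive cells, yet messages of the CD3 complex were above the filter in wild type marrow and lower in the knockout. NK cells can carry CD3 messages without a T cell receptor at the surface. Of 14 genes of the CD3 complex and T cell receptor signalling, 0 rose and 6 fell, with a median of -0.24. Cd3d measured 9.39, 9.30 and 9.32 in the wild type arrays and 6.26, 6.78 and 6.49 in the knockout arrays (-3.14 ± 0.26, adjusted p = 2.14e-05). Cd3g measured 8.75, 8.88 and 8.68 in the wild type arrays and 6.84, 7.75 and 7.42 in the knockout arrays (-1.69 ± 0.24, adjusted p = 0.00128). All knockout arrays were below all wild type arrays for both. Cd28, a costimulatory receptor, measured 9.26, 9.38 and 9.48 in the wild type arrays and 8.22, 8.03 and 7.64 in the knockout arrays (-1.28 ± 0.16, adjusted p = 0.00047), and Skap1, an adaptor that links the receptor to integrins, fell by 0.80 ± 0.14. Cd3e fell by 1.00 ± 0.24, adjusted p = 0.0265 and was called in 8 of the 12 fits. Cd247 was the sixth. The summed T cell markers, given above, moved the same way, since they contain the same CD3 genes. With the granulocyte covariate 1 of the 14 was called. Leaving out wild type array 1 ended the call of Cd3e, at a difference of -1.16.

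Receptors for chemokines and for egress from tissue were more often lower than higher. Of 17 tested, 6 fell and 1 rose, with a median of -0.41. Cxcr3, which binds the interferon-induced chemokines CXCL9 and CXCL10, measured 9.90, 10.37 and 10.57 in the wild type arrays and 7.33, 7.74 and 7.21 in the knockout arrays (-2.94 ± 0.27, adjusted p = 4.91e-05). S1pr1, the sphingosine 1-phosphate receptor that lets lymphocytes leave tissue, measured 9.37, 9.24 and 9.80 in the wild type arrays and 6.73, 6.32 and 6.78 in the knockout arrays (-2.71 ± 0.19, adjusted p = 6.52e-06). Klf2, a transcription factor that activates S1pr1, measured 8.74, 8.84 and 8.95 in the wild type arrays and 7.76, 7.58 and 7.70 in the knockout arrays (-1.18 ± 0.15, adjusted p = 0.000574). The groups do not overlap for any of the 3. Gpr183, an oxysterol receptor, fell by 1.23 ± 0.20, adjusted p = 0.00273, and Cmklr1, the chemerin receptor of NK cells, by 1.02 ± 0.19, adjusted p = 0.00554. The sole rise was in Cxcr6, the receptor for CXCL16 on tissue-resident cells, which measured 7.90, 7.995 and 7.89 in the wild type arrays and 9.53, 10.18 and 10.11 in the knockout arrays (1.89 ± 0.19, adjusted p = 9.80e-05). S1pr5 and Cxcr4, the receptors that drive and restrain NK exit from marrow, were not called (-0.41 ± 0.15, adjusted p = 0.11 and -0.53 ± 0.22, adjusted p = 0.179), with 95% intervals of -0.73 to -0.09 and -1.02 to -0.04. S1pr4 fell by 0.59 ± 0.15 and was called in 6 of the 12 fits. The counts were 4 lower and 1 higher without wild type array 1, and 2 lower and 0 higher with the granulocyte covariate. With wild type array 1 left out, Cmklr1 and S1pr4 were not called, at differences of -0.96 and -0.52.

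Adhesion genes moved in both directions. Of 22 tested integrins and adhesion proteins, 5 rose and 5 fell, with a median of -0.02. Itgax, the CD11c chain, measured 9.98, 9.90 and 10.24 in the wild type arrays and 11.36, 11.48 and 11.57 in the knockout arrays (1.46 ± 0.12, adjusted p = 3.10e-05). Itgb1, the partner chain of Itga1, rose by 0.84 ± 0.10, adjusted p = 0.000388. Together with Itga1 and Cdh1 these were the rises that held without wild type array 1. Cd44, the hyaluronan receptor, measured 8.68, 8.79 and 8.83 in the wild type arrays and 6.88, 7.18 and 6.99 in the knockout arrays (-1.79 ± 0.13, adjusted p = 8.28e-06). Itga4, which binds VCAM-1 in the marrow, fell by 1.03 ± 0.16, adjusted p = 0.00167, and Itga2, the CD49b chain used to mark conventional NK cells, by 0.76 ± 0.12, adjusted p = 0.00309. Icam2 fell by 0.90 ± 0.17 and Itgb2 by 0.51 ± 0.11. The counts were 4 and 3 without wild type array 1, and 3 and 1 with the granulocyte covariate. Itgam, the CD11b chain of mature NK cells, was not called (-0.61 ± 0.18, adjusted p = 0.0617). Of 8 semaphorins, plexins and neuropilins, 2 rose and 2 fell. Besides Sema6d and Plxnc1, Nrp1, a receptor for semaphorins and VEGF, measured 5.34, 5.39 and 5.16 in the wild type arrays and 6.46, 6.74 and 6.73 in the knockout arrays (1.27 ± 0.16, adjusted p = 0.000392), and Sema4b fell by 0.64 ± 0.13. Every wild type signal of Nrp1 lay below the expression filter, where differences are compressed. When wild type array 1 was left out the calls of Icam2, Itgb2 and Sema4b were lost (-0.97, -0.49 and -0.68).

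Genes known from ILC1 and tissue-resident NK cells were the list with the highest median. Of 25 tested, 12 rose and 2 fell, with a median of 0.66, where 3.92% of all tested genes rose. The list was chosen with earlier results of these data known, so this contrast is not an independent test. Besides Gzmc, Itga1, Gpr34, Inpp4b, Tmem176a, Tnfsf10, Cxcr6 and Cish, the rises were Tmem176b (2.19 ± 0.26), Pmepa1, an inhibitor of TGF-beta signalling (1.24 ± 0.25), Chn2, a GTPase-activating protein for Rac (1.14 ± 0.11), and Asb2, a ubiquitin ligase subunit (0.99 ± 0.16). The list did not move as a whole. Ctla2a, a protease inhibitor whose probes can also bind Ctla2b, fell by 1.16 ± 0.19, adjusted p = 0.00332, and Socs3 by 0.97 ± 0.20. Il7r, Rora and Cd69 were not called (-1.06 ± 0.37, 0.57 ± 0.17 and -0.32 ± 0.20). The counts without wild type array 1 were 10 and 2, and with the granulocyte covariate 5 and 0. If wild type array 1 was omitted, Pmepa1 was not called (0.97).

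Genes high in mature NK cells gave 2 rises and 3 falls of 15, with a median of -0.41. The rises were Klrg1 and Gzmb, and the falls were Serpinb9b, Cma1 and Cym (-0.69 ± 0.16), and with the granulocyte covariate the counts were 0 and 1. Of 17 tested genes high in immature NK cells, 0 rose and 8 fell, with a median of -0.66, where 4.73% of all tested genes fell. This list too was chosen with earlier results of these data known. Tnfsf10, named above as a ligand of ILC1 and immature NK cells, is not in this list and rose. Kit, the stem cell factor receptor, measured 6.84, 7.37 and 7.46 in the wild type arrays and 5.72, 5.86 and 5.83 in the knockout arrays (-1.31 ± 0.17, adjusted p = 0.000633). The other falls were in Slamf6, Cxcr3, Cd28, Ctla2a, Ctla2b (-1.10 ± 0.17), Emb (-0.84 ± 0.15) and Ltb. In the fit without wild type array 1, 9 fell and the median was -1.01, and with the granulocyte covariate 2 fell and the median was -0.55. The lists of mature and immature genes thus both had medians below that of all genes. Their summed signals moved apart, without overlap. That of the mature list was higher in the knockout (10513 to 11622 in wild type, 11892 to 12988 in knockout arrays). That of the immature list was lower (13518 to 15760 in wild type, 9744 to 11409 in knockout arrays). In the absence of wild type array 1 the call of Cym was lost, at a difference of -0.74. Over the fits that each omitted 1 of 12 arrays, Cym was called in 9.

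Of 34 NK transcription factors tested, 2 rose and 3 fell, with a median of 0.00. The share called was 14.7%, against 8.65% of all tested genes. Ahr, the aryl hydrocarbon receptor, measured 7.00, 6.78 and 6.96 in the wild type arrays and 7.81, 8.71 and 8.57 in the knockout arrays (1.41 ± 0.24, adjusted p = 0.00368). Tox, which NK development needs, rose by 0.72 ± 0.18 and was called in 6 of the 12 fits. Nfil3, which acts early in NK development, measured 9.45, 9.48 and 9.21 in the wild type arrays and 8.90, 8.37 and 8.22 in the knockout arrays (-0.998 ± 0.18, adjusted p = 0.00508). Klf3 and Klf2 were the other falls. Eomes and Tbx21, the T-box factors that drive NK maturation, were not called (0.04 ± 0.11, adjusted p = 0.848 and -0.12 ± 0.17, adjusted p = 0.709), and their 95% intervals were -0.21 to 0.29 and -0.48 to 0.25. Id2 and Zeb2 were not called (0.46 ± 0.14 and -0.45 ± 0.18). The counts were 1 and 3 without wild type array 1, and 0 and 1 with the granulocyte covariate. The call of Tox was lost without wild type array 1, at a difference of 0.62.

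Genes of the TGF-beta and activin pathway were more often higher than lower. Of 24 tested, 9 rose and 2 fell, with a median of 0.38, where 3.92% of all tested genes rose and 4.73% fell. Among receptors, Acvr2a, an activin receptor, measured 7.40, 7.49 and 7.28 in the wild type arrays and 8.55, 8.85 and 8.95 in the knockout arrays (1.43 ± 0.15, adjusted p = 0.000134), and Bmpr2, a receptor for bone morphogenetic proteins, rose by 1.27 ± 0.21, adjusted p = 0.0034. Among ligands and their binding proteins, Tgfb1 rose, Ltbp3 rose by 0.72 ± 0.12, adjusted p = 0.0027, and Tgfb3 fell by 0.99 ± 0.28, adjusted p = 0.0472. Tgfbr1 and Tgfbr2, the receptor chains for TGF-beta itself, were not called (0.31 ± 0.12 and 0.33 ± 0.15), nor was Smad4 (-0.12 ± 0.13). Smad3, the signal transducer, fell by 0.54 ± 0.14 and was called in 6 of the 12 fits. The smaller rises were Smurf1 (0.68 ± 0.18), Tgfbr3 (0.63 ± 0.15) and Ltbp1 (0.41 ± 0.12). These counts rested on single arrays, with 3 higher and 0 lower without wild type array 1 and 5 higher and 1 lower without knockout array 3. None was called with the granulocyte covariate, where the difference of Acvr2a was 1.40 (adjusted p = 0.0546). Leaving out wild type array 1 ended the calls of Bmpr2, Tgfb3, Smad3, Smurf1, Tgfbr3 and Ltbp1, at differences of 1.17, -1.18, -0.66, 0.82, 0.58 and 0.37. In the 12 fits that left out 1 array, Tgfb3 was called in 2, Smurf1 in 2, Tgfbr3 in 9 and Ltbp1 in 1.

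Some enzymes of phospholipid and diacylglycerol signalling changed. Of 22 genes of PI3 kinase and inositol metabolism, 2 rose and 3 fell. Inpp4b rose, as did Pik3r3, a regulatory subunit (1.17 ± 0.22, adjusted p = 0.00655). Pik3r5, the subunit that couples PI3 kinase gamma to G proteins, fell by 1.14 ± 0.13, adjusted p = 0.00022, Pik3cd by 0.43 ± 0.12, and Sgk1 is given above. Of 18 genes of diacylglycerol, Ras and calcium signalling, 0 rose and 5 fell, with a median of -0.19. Besides Dgka, Rasgrp2, an exchange factor that diacylglycerol and calcium activate and that switches on integrins through Rap1, measured 7.58, 7.72 and 8.25 in the wild type arrays and 6.54, 6.25 and 6.30 in the knockout arrays (-1.49 ± 0.19, adjusted p = 0.000569). The protein kinase C genes Prkcd and Prkcq fell by 0.73 ± 0.15 and 0.62 ± 0.12. Dgka consumes the messenger that activates Rasgrp2, and both genes fell. The counts of this list were 0 and 2 without wild type array 1 and 0 and 1 with the granulocyte covariate, and those of PI3 kinase genes 1 and 2, and 1 and 0. With wild type array 1 left out, Pik3r3, Pik3cd, Prkcd and Prkcq were not called, at differences of 1.21, -0.55, -0.83 and -0.60. Across the 12 such fits, Pik3cd was called in 1.

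Of 21 regulators of G protein and cyclic nucleotide signalling, 5 rose and 2 fell. Pde2a, which degrades cyclic AMP and GMP, measured 9.09, 8.96 and 9.27 in the wild type arrays and 7.40, 7.40 and 7.23 in the knockout arrays (-1.75 ± 0.13, adjusted p = 8.28e-06). Rgs18, which ends G protein signalling, rose by 1.42 ± 0.26, adjusted p = 0.00604, and Gnaq by 0.76 ± 0.20. Rgs16 rose by 1.02 ± 0.29 but was called in 1 of the 12 fits. The counts were 1 and 1 without wild type array 1, and 0 and 1 with the granulocyte covariate. When wild type array 1 was left out the calls of Rgs18 and Rgs16 were lost (0.94 and 1.25). Among the 12 fits without 1 array, Gnaq was called in 2.

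Of 26 genes reported elsewhere as miR-142 targets, 20 passed the filter. Of these 4 rose and 1 fell, where 3.92% of all tested genes rose and 4.73% fell. Their median was 0.14, against -0.01 over all tested genes. A message that miR-142 represses directly would be higher without it, and the array cannot tell direct from indirect differences. Cfl2, an actin-severing cofilin, measured 7.73, 7.73 and 8.05 in the wild type arrays and 8.97, 8.98 and 8.93 in the knockout arrays (1.25 ± 0.13, adjusted p = 0.000144). Egr2, a zinc finger transcription factor, rose by 0.89 ± 0.18, adjusted p = 0.0095. Itgav, a TGF-beta activating integrin chain, and Twf1, an actin monomer binder, rose by 0.55 ± 0.15 and 0.53 ± 0.12, and were called in 3 and 11 of the 12 fits. Smad3 was the fall. Tgfbr1, Il6st, Rac1 and Socs1 were not called (0.31 ± 0.12, 0.25 ± 0.25, 0.13 ± 0.10 and -0.21 ± 0.18). The counts were 2 higher and 0 lower without wild type array 1, and none was called with the granulocyte covariate. Among 12 genes of the small RNA pathway none was called, with a median of -0.07, and Dicer1 and Ago2 differed by -0.07 ± 0.14 and -0.32 ± 0.21. If wild type array 1 was omitted, Itgav and Twf1 were not called (0.44 and 0.49).

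Actin regulators had 5 rises and 3 falls of 27, with a median of -0.12. Tmsb15a, a thymosin that holds actin monomers, measured 10.06, 9.50 and 9.54 in the wild type arrays and 11.95, 11.75 and 11.87 in the knockout arrays (2.09 ± 0.19, adjusted p = 4.71e-05). Dstn, an actin-severing protein related to cofilin, rose by 1.42 ± 0.23, adjusted p = 0.00286, and Capg, which caps filaments, by 1.10 ± 0.16, adjusted p = 0.00131. Both, like Cfl2, act on actin filament ends or turnover. Twf2 and Cap1 fell by 0.75 ± 0.15 and 0.53 ± 0.11. The falls were not called without wild type array 1, where 4 genes of the list were called higher, and 1 was with the granulocyte covariate. In the absence of wild type array 1 the calls of Twf2 and Cap1 were lost, at differences of -0.72 and -0.52.

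Cell cycle genes were uneven between arrays. The mean log2 signal of DNA replication genes was 7.46 to 8.04 in wild type and 6.90 to 7.60 in knockout arrays, and that of mitosis genes 7.35 to 8.27 and 6.39 to 8.40. Both lists overlap between genotypes, and knockout array 3 was the lowest of the 6 in both. In each of the 4 groups of genotype and tissue, both means fell from replicate 1 to 2 to 3. Between same-numbered marrow arrays, DNA replication was lower in the knockout each time (8.04 and 7.60, 7.59 and 7.32, 7.46 and 6.90). Mitosis was higher in the knockout for number 1 (8.27 and 8.40) and lower for numbers 2 and 3. What a number shares is not given in the labels. Of 37 DNA replication genes 0 rose and 6 fell, with a median of -0.55. Among them were the helicase subunits Mcm4 (-1.11 ± 0.24) and Mcm3 (-0.97 ± 0.24) and the licensing factor Cdt1 (-0.60 ± 0.17). Without wild type array 1 no member was called and the median was -0.18. Without knockout array 3, 1 member was called and the median was -0.34, and none was called with the granulocyte covariate. Of 34 mitosis genes none was called, with a median of -0.55 that became -0.20 without wild type array 1 and -0.11 without knockout array 3. Mki67, the proliferation marker Ki-67, measured 10.05, 9.62 and 9.07 in the wild type arrays and 9.99, 9.05 and 7.56 in the knockout arrays (-1.08 ± 0.55, adjusted p = 0.258). The knockout arrays spread over 2 log2 units and the groups overlap. The calls of Mcm4, Mcm3 and Cdt1 were lost without wild type array 1, at differences of -0.86, -0.60 and -0.41. Over the fits that each omitted 1 of 12 arrays, Mcm3 was called in 10 and Cdt1 in 3.

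Metabolic genes gave a few large changes on a flat background. Cox6a2, the heart and muscle form of a cytochrome oxidase subunit, measured 8.85, 8.57 and 8.72 in the wild type arrays and 11.08, 10.70 and 11.25 in the knockout arrays (2.25 ± 0.20, adjusted p = 3.78e-05), and was the sole call of 14 cytochrome oxidase genes, whose median was 0.01. Pfkp, the platelet form of phosphofructokinase, measured 9.40, 9.02 and 9.21 in the wild type arrays and 8.01, 8.28 and 8.24 in the knockout arrays (-1.16 ± 0.12, adjusted p = 0.000122), and with Pgam1 (-0.45 ± 0.12) made up the falls of 16 glycolysis genes. Of 19 glutathione genes 3 rose and 0 fell. Besides Gsta4, Gsta3 measured 6.23, 5.88 and 6.06 in the wild type arrays and 8.25, 8.64 and 8.21 in the knockout arrays (2.37 ± 0.19, adjusted p = 2.05e-05) and Gstm1 measured 8.78, 9.16 and 9.11 in the wild type arrays and 10.09, 10.52 and 10.81 in the knockout arrays (1.49 ± 0.20, adjusted p = 0.000679). These transferase families are alike in sequence and can share probes, and 2 of the 3 were called with the granulocyte covariate. Of 16 sialic acid genes 2 rose and 3 fell. Besides Cmah, Gne, which starts sialic acid synthesis, rose by 0.97 ± 0.15, adjusted p = 0.00203 and the sialyltransferase St3gal3 by 1.15 ± 0.17, adjusted p = 0.00128. St3gal6 and St3gal1 fell by 0.74 ± 0.20 and 0.66 ± 0.14. Another St3gal1 probe set, of lower signal, did not fall. Its marrow group means differed by 0.06, against -0.89 for the probe set used. The counts of the sialic acid genes were 1 and 1 without wild type array 1, and 0 and 1 with the granulocyte covariate. Of 20 sterol genes Lss and Mvd rose by 1.00 ± 0.15 and 0.54 ± 0.13, and Insig1, which holds back sterol synthesis, fell by 0.97 ± 0.14, and none was called with the granulocyte covariate. Of 28 genes of ribosome biogenesis and Myc, 1 rose and 2 fell, with a median of -0.20 and no call without wild type array 1, and 18 ribosomal proteins had no call and a median of -0.06. Leaving out wild type array 1 ended the calls of Pgam1, Gne, St3gal6, St3gal1 and Mvd, at differences of -0.47, 0.82, -0.79, -0.58 and 0.57. In the 12 fits that left out 1 array, Pgam1 was called in 3, St3gal6 in 3 and Mvd in 8.

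Of 26 immediate early genes 1 rose and 2 fell (11.5% called, against 8.65% of all tested genes), with a median of -0.44. Ier2, induced early after stimulation, measured 9.40, 9.23 and 8.88 in the wild type arrays and 8.16, 7.98 and 7.32 in the knockout arrays (-1.53 ± 0.23, adjusted p = 0.00143). Nr4a1, a nuclear receptor induced by antigen receptor signals, fell by 1.89 ± 0.44, adjusted p = 0.0207 and was called in 9 of the 12 fits. Egr2 was the rise, and none was called with the granulocyte covariate. Of 21 interferon-stimulated genes Aim2, a DNA sensor, alone was called, with a rise of 1.00 ± 0.17, adjusted p = 0.00355, and the call was lost with the granulocyte covariate (1.01, adjusted p = 0.197) and within the first run. Of 14 BCL2 family genes Bcl2l11, which encodes the death protein Bim, alone was called, with a rise of 0.71 ± 0.14, adjusted p = 0.00935 that was not called with the granulocyte covariate (0.57), and the survival genes Bcl2 and Mcl1 were not called (-0.19 ± 0.16 and -0.19 ± 0.10). None of 8 GIMAP genes was called. Of 17 TNF superfamily genes 2 rose and 3 fell, led by Tnfsf10 and Tnfrsf9, and with the granulocyte covariate the counts were 1 and 0. With wild type array 1 left out, Nr4a1 and Bcl2l11 were not called, at differences of -1.59 and 0.75.

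Genes of blood progenitors were also measurable. Of 11 tested, 3 rose and 2 fell. Hoxa9, a homeobox factor of progenitors, measured 5.86, 5.70 and 5.67 in the wild type arrays and 7.37, 7.41 and 7.19 in the knockout arrays (1.73 ± 0.16, adjusted p = 5.88e-05). Its partner Meis1 rose by 1.53 ± 0.27, adjusted p = 0.00426, and Hoxa7 by 0.85 ± 0.11, adjusted p = 0.00071. Angpt1, a ligand of the receptor Tie2, fell by 1.47 ± 0.35, adjusted p = 0.024, and Kit fell. The progenitor genes thus did not move together, and 1 was called, higher, with the granulocyte covariate. When wild type array 1 was left out the call of Angpt1 was lost (-1.15). Across the 12 such fits, Angpt1 was called in 9.

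In spleen NK cells most genes called in marrow had a difference of the same sign. Of the 291 genes over 2-fold in marrow, 278 had the same sign in spleen, and of all 1035 called in marrow 87 had the opposite sign. The share over all tested genes was not counted. Some list medians changed sign, such as those of mitosis genes (-0.55 in marrow and 0.60 in spleen) and granulocyte markers (-0.95 and 0.36). Others did not, such as that of the ILC1 and residency list (0.66 and 0.80). The test of the difference between the marrow and the spleen effect called 1 gene of 11963 (0.00836%). That gene was Slamf6, which fell by 4.09 ± 0.13 in marrow and differed by -2.50 ± 0.11 in spleen, and these effects differed by -1.59 ± 0.18 (limma, adjusted p = 0.0194). In spleen Slamf6 measured 7.31, 7.32 and 7.13 for wild type and 4.75, 4.85 and 4.68 for knockout. The knockout signals of both tissues thus lay near the lower quartile of the arrays, and the wild type signals were higher in marrow than in spleen. The call was lost in 5 of the 12 fits that left out 1 array: without wild type marrow array 1 (-1.69, adjusted p = 0.148), wild type marrow array 2 (-1.60, adjusted p = 0.0502), knockout marrow array 3 (-1.53, adjusted p = 0.0637), wild type spleen array 3 (-1.39, adjusted p = 0.181) and knockout spleen array 3 (-1.69, adjusted p = 0.0889). At an unadjusted p under 0.05 there were 1092 genes (9.13%). Cd3d differed by -3.14 ± 0.26 in marrow and -1.05 ± 0.23 in spleen (adjusted p of the difference = 0.0934), Dgka by -3.48 ± 0.14 and -2.24 ± 0.13 (adjusted p = 0.0837) and Klf3 by -2.90 ± 0.19 and -1.59 ± 0.18 (adjusted p = 0.19). Among rises, Gsta4 differed by 4.45 ± 0.28 and 2.78 ± 0.25 (adjusted p = 0.26) and Cdh1 by 2.93 ± 0.21 and 1.61 ± 0.19 (adjusted p = 0.242). None of these 5 differences between tissues passed the threshold. S100a8 had opposite signs, -1.74 ± 0.41 in marrow and 1.81 ± 0.37 in spleen (adjusted p = 0.0837), as did Car1, at -1.71 ± 0.34 and 1.77 ± 0.30 (adjusted p = 0.071).

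**Figure D5:**
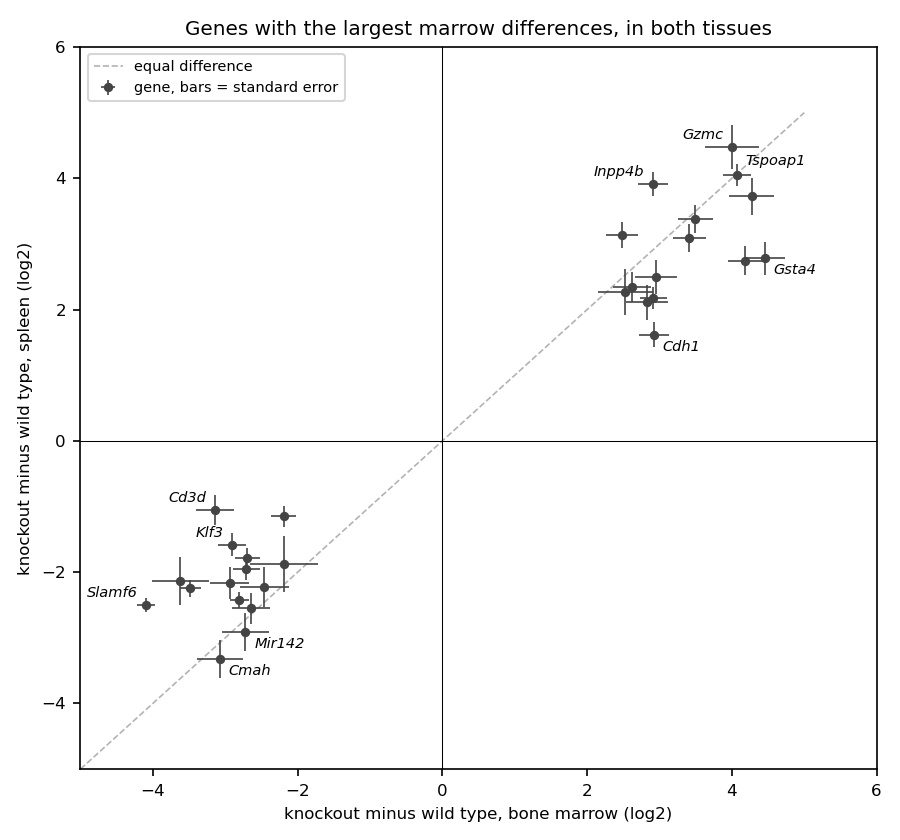
Knockout minus wild type difference (log2) in spleen against that in bone marrow for the 30 genes with the largest marrow rises and falls and non-overlapping marrow arrays. Bars are standard errors and the dashed line marks equal differences. All points lie in the quadrants of equal sign. Slamf6, the sole gene whose marrow and spleen effects differed by the test, lies at -4.09 in marrow and -2.50 in spleen.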

How the data were processed

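Per the labels' protocols, Trizol RNA was amplified (NuGEN Ovation PicoSL) and put on Affymetrix arrays. What the authors deposited is a log2 signal for each probe set, made with Affymetrix Expression Console and RMA per the submitters' processing notes. This method subtracts background, equalises the quantiles of the arrays and combines probes. It gives no detection calls and compresses differences at low signal. Their versions and the build are not given in the sources.

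Genes were named from the 21789 of 35556 probe sets with 1 gene symbol, and the probe set with the highest mean was used for each of 19938 genes. Those with a mean above the 40th percentile (5.49) were tested, which left 11963. limma 3.58.1 in R 4.3.3 fitted a mean for each of the 4 groups of genotype and tissue, with the run of array numbers as a covariate, over all 12 arrays (7 residual degrees of freedom, 4.74 prior). A difference from this fit is not exactly the difference of the group means. P-values are two-sided and Benjamini-Hochberg adjusted over all tested genes, and the number of arrays limits the precision. The 0 other per-sample columns needed no treatment. Summed list levels are sums of linear signals over all measured members.

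The genes named are Mir142, the 15 called genes of largest difference in each direction with no overlap between the marrow groups (predicted and receptor-cluster entries left out), called genes of the marrow against spleen difference, and members of the gene lists. Members and lists were chosen with earlier results of these data known. The steps were tested on simulated data: in 10 simulations of the marrow comparison, with 200 of 11963 genes changed, changes of 0.5, 1, 1.5 and 2 were recovered for 24.4%, 83.4%, 93.4% and 98.6% of genes, and 4.64% of calls were false. The simulated noise was independent between genes and arrays, with no effect of run, replicate number or granulocyte level. The real arrays differ in this, so these shares need not hold for them.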

Additional observations from a re-analysis of the deposited data

Results flagged for a closer look

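Slamf6 was the 1 gene whose effect in marrow differed from that in spleen by a test of the difference itself. The marrow effect was -4.09 ± 0.13 and the spleen effect -2.50 ± 0.11, a difference of -1.59 ± 0.18 (limma, Benjamini-Hochberg adjusted p = 0.0194, lower in all 3 knockout arrays of each tissue). The adjusted p was over 0.05 in 5 of the 12 fits that left out 1 array (highest 0.181, without wild type spleen array 3), within the first run (0.418) and with the granulocyte covariate (0.712).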

How the results depend on the processing

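Of 173 genes followed over 27 alternatives, 33 kept their direction and call in every planned one. Calls were lost for 137 with the granulocyte level as a covariate, 79 without wild type marrow array 1 and 85 within the first run. The 1035 calls became 1590 with no run term, 95 with the granulocyte covariate, 342 within the first run, 371 to 1006 leaving out 1 array (lowest without wild type marrow array 1), and 289 without both wild type marrow array 1 and knockout marrow array 3, an alternative chosen after seeing the data. The 469 higher genes became 44, 191 and 158 with the covariate, within the first run and without both arrays, and 189 to 450 leaving out 1 array. The 566 lower genes became 898 with no run term, 51, 151 and 131 in those 3 fits, and 182 to 556 leaving out 1 array. The genes over 2-fold became 94 with the covariate. The marrow against spleen difference, 1 gene, became 2 with no run term or with array weights, 5 with a variance trend or the replicate block, 0 with a filter at the 60th percentile, the covariate or the first run alone, and 0 to 5 leaving out 1 array. Camp (0.19) and S100a8 (0.11), both members of the covariate's own list, turned upwards with the covariate, where neither was called. With the replicate number as a block 975 genes were called, or 1164 from the marrow arrays alone. Deviations from the group means correlated at 0.24, -0.02 and 0.17 for same-numbered marrow arrays, and at 0.08, -0.01 and 0.09 in spleen. In both tissues pairs 1 and 3 correlated above the other-numbered pairs of their arrays, and pair 2 did not. Mean mitosis signal also fell from replicate 1 to 3 in all 4 groups. The labels do not tell what a number shares, so the main fit has no such block. Medians of the 52 lists moved beyond their spread in 65 refits and did not in 1390. Differences under about 1 near the lower quartile of the arrays are the least certain, since RMA compresses them.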
